A study of Homo sapiens with 6 samples.

Results

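Nonsense-mediated decay (NMD) factors are the proteins that recognise and remove mRNAs whose reading frame ends too early. The 9 genes described here are UPF1, UPF2, UPF3A, UPF3B, SMG1, SMG5, SMG6, SMG8 and SMG9, taken by their symbols from a table of 28752 genes. All 9 were in the table and all 9 passed the filter on low counts, which left 16458 genes to test. RNA sequencing was run on SH-SY5Y, a human neuroblastoma cell line derived from sympathetic nervous tissue. The OE-circSHPRH group (3 libraries) had been transfected for 72 h with a construct named for circ-SHPRH, a circular RNA of the SHPRH gene. The OE-NC group (3 libraries) had been transfected for the same time with OE-NC. What OE and NC stand for is not written in the labels, and OE-NC is read here as a negative control. The labels also do not say that the 3 replicates came from separate cultures, so p-values measure only the spread between these libraries, which may be technical. Both groups are the same line with no other difference in genotype or treatment given.

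NMD begins when the RNA helicase UPF1 gathers at a ribosome that stops too early, often upstream of an exon junction complex, the protein mark that splicing leaves on mRNA. UPF2 joins UPF1, and UPF3A or UPF3B links UPF2 to the exon junction complex. The kinase SMG1, regulated by its partners SMG8 and SMG9, then phosphorylates UPF1, and SMG5 and SMG6 bind the phosphorylated protein: SMG6 cuts the mRNA, while SMG5 brings in decay enzymes. The pathway also keeps many normal transcripts low, among them spliced host transcripts of small nucleolar RNAs (snoRNAs), and several NMD factor mRNAs are themselves known as targets.

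Close copies bear on how the reads of some members can be assigned. SMG1 has partial copies named SMG1P1 to SMG1P7 on its own chromosome, and UPF3A and UPF3B are paralogs. The first sequences below are 60 bases of an SMG1 coding exon and the same stretch of SMG1P1, shown because 59 of 60 bases match. The others are the most alike 60 bases of the UPF3A and UPF3B coding sequences within single exons and without gaps, of which 46 match. They were read 5′ to 3′ from the GENCODE 29 transcripts on GRCh38, and capitals mark the bases that differ. The SMG1 stretch is chr16:18896852-18896911 on the minus strand and that of SMG1P1 is chr16:22454747-22454806 on the plus strand. The UPF3A stretch is chr13:114291634-114291693 on the plus strand and that of UPF3B is chrX:119841199-119841258 on the minus strand.
SMG1: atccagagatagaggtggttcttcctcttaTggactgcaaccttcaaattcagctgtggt
SMG1P1: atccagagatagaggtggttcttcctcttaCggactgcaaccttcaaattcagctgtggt
UPF3A: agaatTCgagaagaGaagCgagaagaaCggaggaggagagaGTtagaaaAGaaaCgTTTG
UPF3B: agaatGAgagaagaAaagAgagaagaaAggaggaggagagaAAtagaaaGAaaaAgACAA

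Counted as runs of 50 bases of the principal transcript that also occur in a transcript of another gene, the copies touched some members and not others. In SMG1, 17.2% of the runs (2762 of 16066) were shared with SMG1P copies, and 18.9% with any other gene. NPIPB5 had the most outside the SMG1P copies, 5.15%, and a run can be shared with several genes. In UPF3A 42.1% (985 of 2338) were shared with 3 copies named UPF3AP. UPF3A and UPF3B shared no such run. SMG6 shared 29.6%, nearly all of it with HIC1, a coding gene on the opposite strand that overlaps it, and SMG8 shared 11.7% with AC099850.2, which was not analysed here. SMG9 shared 0.165%, and UPF1, UPF2, UPF3B and SMG5 shared none. How the counts treated reads with several matches, or used strand, is not given in the sources used here, so values of SMG1, UPF3A, SMG6 and SMG8 are uncertain to that extent.

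The libraries held 15645261 to 17591718 counts, so 1 count equalled 0.0568 to 0.0639 CPM, the depth-scaled count used below. SHPRH checked the labels: it had 1395, 1121 and 1071 counts in OE-circSHPRH, against 394, 409 and 472 in OE-NC. Counts per gene do not separate circular from linear SHPRH RNA. The log2 fold change of SHPRH was 1.54 (SE 0.083, adjusted p = 2.26e-09). This and every adjusted p below came from the quasi-likelihood test of edgeR, adjusted over all genes tested by the Benjamini-Hochberg method, unless another source is named. CDKN1A, which encodes the cell cycle inhibitor p21 of the study's title, was also higher (log2 fold change 0.43, edgeR adjusted p = 1.44e-05). At an adjusted p under 0.05 the test called 31 of the 16458 genes, 21 as higher and 10 as lower. All 9 markers of adrenergic neuroblastoma checked were present, at 2.63 FPKM (counts scaled to library depth and gene length) or more in every library. Of 13 markers of other cell types, 8 were in the table, none above 8 FPKM in a library, and 5 were not analysed here. DCN and COL1A1, named after their values were seen, averaged 7.23 and 3.14 FPKM over the 6 libraries. The adrenergic marker TH averaged 3.41 FPKM, and DCN lay above it in every library. The other markers of this list in the table had at most 0.946 FPKM. The levels thus do not fully separate the 2 sets of markers. Mitochondrially encoded genes took 12.1%, 11.4% and 10.2% of the counts in OE-circSHPRH replicates 1 to 3, against 10.3%, 10.2% and 11.4% in OE-NC replicates 1 to 3. The high-share libraries were thus OE-circSHPRH replicates 1 and 2 and OE-NC replicate 3.

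No NMD factor mRNA passed the test between OE-circSHPRH and OE-NC. Of the 9 members, 0 were called in either direction, against 0.188% of all genes tested (31 of 16458). DESeq2 and limma-voom also called 0. At an unadjusted p under 0.05 by edgeR, UPF3B and SMG9 were lower and 0 members were higher, against 5.02% of all genes tested that were lower at that level and 5.33% that were higher. The log2 fold changes ran from -0.16 for SMG9 to 0.055 for SMG8 with a median of -0.048, and 5 of 9 were negative. Over all genes tested the median was 0.0018 and 49.2% were negative. In 4 of 9 members, UPF3B, SMG1, SMG5 and SMG9, every OE-circSHPRH library lay below every OE-NC library, and in 0 members did every one lie above. Among all genes tested 15.6% did not overlap, 7.57% lower and 7.99% higher. All members were read from the same 6 libraries, and the count is a description of them. In bulk RNA, fewer cells of a type and less RNA per cell cannot be told apart.

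**Figure D1:**
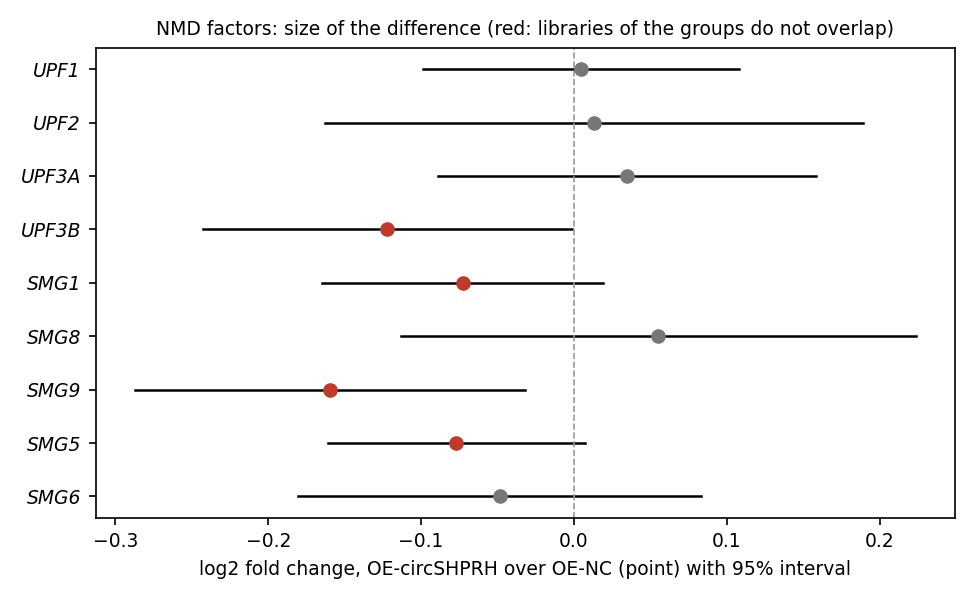
The points are edgeR's log2 fold changes of the 9 members, OE-circSHPRH over OE-NC, and the bars are 95% intervals; red marks members whose libraries do not overlap between the groups. The intervals of UPF3B and SMG9 lie below 0, that of UPF3B only just, and the other 7 include 0.

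UPF1, the helicase at the centre of the pathway (ENSG00000005007, chr19:18831938-18868236 on the plus strand of GRCh38), had 147, 161 and 163 CPM in OE-circSHPRH replicates 1 to 3, against 163, 156 and 149.8 CPM in OE-NC replicates 1 to 3. The groups overlapped throughout, with means of 157 ± 8.30 CPM in OE-circSHPRH and 156 ± 6.60 CPM in OE-NC (SD, n = 3 each). The log2 fold change was 0.0047 (SE 0.049, edgeR adjusted p = 0.991). The 95% interval of the fold was 0.934 to 1.08, which is the range of differences that these libraries still allow. In the authors' deposited table the adjusted p of UPF1 was 0.998.

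UPF2, the adaptor that activates UPF1 (ENSG00000151461, chr10:11920022-12043170, minus strand), had 52.0, 47.6 and 41.5 CPM in OE-circSHPRH, against 44.0, 43.1 and 52.6 CPM in OE-NC. It varied most of the 9, with a coefficient of variation of 10.1% over the 6 libraries, where counting alone would give 3.58%. The log2 fold change between the groups was 0.013 (SE 0.084, edgeR adjusted p = 0.982), with a fold of 0.893 to 1.14 in the 95% interval. The libraries of UPF2 split by mitochondrial share instead of by group. The 3 high-share libraries (OE-circSHPRH replicates 1 and 2, OE-NC replicate 3) were all above the 3 low-share libraries, as in 8.49% of all genes tested, while 8.72% were lower in all 3. With group kept as a term, UPF2 was higher in the high-share libraries by 0.27 on the log2 scale (SE 0.061, edgeR adjusted p = 0.0206), where 1.31% of all genes tested passed in either direction. The OE-circSHPRH minus OE-NC difference of mean log2 CPM was -0.070 among low-share libraries and -0.081 among high-share libraries, so both lay below 0 while the pooled value did not. Each rested on a single library on one side, OE-circSHPRH replicate 3 among low-share and OE-NC replicate 3 among high-share libraries. UPF2 was the one member that passed between the shares. The next smallest edgeR adjusted p was that of SMG8, 0.149, with a log2 difference of -0.20. What sets the mitochondrial share was not tested.

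**Figure D2:**
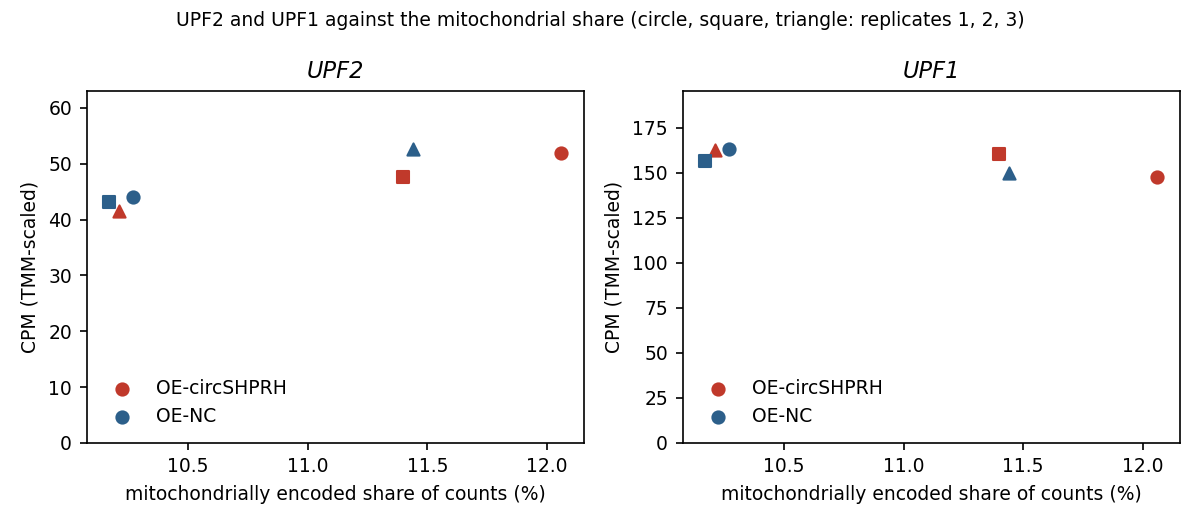
Each point is a library, with the percent of counts from mitochondrially encoded genes on the x axis and TMM-scaled CPM on the y axis, UPF2 left and UPF1 right. UPF2 is 47.6 to 52.6 CPM in the 3 high-share libraries and 41.5 to 44.0 CPM in the others, whichever the group. UPF1 is 147 to 161 CPM in the high-share libraries and 156 to 163 CPM in the others, so its ranges overlap.

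UPF3A and UPF3B, the alternative links to the exon junction complex, lay on either side of 0. UPF3A (ENSG00000169062, chr13:114281584-114305817, plus strand), the weaker activator of the pair, had 71.8, 82.1 and 83.5 CPM in OE-circSHPRH, against 76.3, 78.3 and 76.9 CPM in OE-NC. OE-circSHPRH replicate 1 was the lowest of the 6 and replicates 2 and 3 the highest, so the groups overlapped (log2 fold change 0.035, SE 0.059, edgeR adjusted p = 0.891). Its UPF3AP copies held 0 to 9 counts per library each and were not tested, against 1206 to 1391 counts for UPF3A. UPF3B (ENSG00000125351, chrX:119805311-119852998, minus strand), the main activator, had 58.0, 54.9 and 53.3 CPM in OE-circSHPRH, against 58.6, 60.6 and 61.7 CPM in OE-NC. No library overlapped, though OE-circSHPRH replicate 1 and OE-NC replicate 1 were less than 1 CPM apart. UPF3B averaged 55.4 ± 2.39 CPM in OE-circSHPRH and 60.3 ± 1.58 CPM in OE-NC (SD, n = 3 each). Its log2 fold change was -0.12 (SE 0.058, unadjusted p = 0.0483, adjusted p = 0.478 by edgeR), and the fold was 0.919 with a 95% interval of 0.845 to 0.999. The ratio of UPF3A to UPF3B in FPKM was 0.660, 0.798 and 0.835 in OE-circSHPRH, against 0.695, 0.690 and 0.665 in OE-NC. OE-circSHPRH replicate 1 had the lowest ratio of all and replicates 2 and 3 the highest, so the groups overlapped. Which gene of the pair stood higher depended on the length used: scaled to the principal transcript instead of the deposited gene length, UPF3A averaged 32.4 and UPF3B 24.1 on the FPKM scale over the 6 libraries.

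The kinase SMG1 (ENSG00000157106, chr16:18804853-18926454, minus strand) had 151, 145 and 145 CPM in OE-circSHPRH, against 152, 154 and 158 CPM in OE-NC. The libraries did not overlap, but the closest were within 1 CPM of each other. The means were 147 ± 3.60 CPM in OE-circSHPRH and 155 ± 3.34 CPM in OE-NC (SD, n = 3 each), which is -0.073 on the log2 fold change scale (SE 0.044, edgeR adjusted p = 0.607). SMG1P copies together held 994, 748 and 839 counts in OE-circSHPRH, against 1014, 1012 and 1074 counts in OE-NC, or 33.2% to 38.6% of SMG1's own count in OE-circSHPRH and 37.3% to 42.3% in OE-NC. Summing SMG1 and all SMG1P copies into 1 feature, an alternative chosen after seeing the data, gave -0.11 on the log2 scale (SE 0.044, edgeR adjusted p = 0.352).

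Of 6 SMG1P copies tested, SMG1P2 passed the test and fell, and 5 of 6 log2 fold changes were negative. Over all genes tested 0.0608% passed as lower and 49.2% were negative. SMG1P2, an unprocessed pseudogene (chr16:29527568-29594966), had 72, 83 and 56 counts in OE-circSHPRH, against 123, 125 and 187 counts in OE-NC, and it fell by 0.99 on the log2 scale (SE 0.19, edgeR adjusted p = 0.0315). It passed in 8 of 13 other fits. The call was lost with the replicate number as a block (edgeR adjusted p = 0.256) and without OE-circSHPRH replicate 1 (0.0655), OE-circSHPRH replicate 2 (0.0553), OE-NC replicate 1 (0.137) or OE-NC replicate 3 (0.162). SMG1P1, the copy with the most counts, had 573, 412 and 417 counts in OE-circSHPRH, against 544, 532 and 533 in OE-NC, and it did not pass (log2 fold change -0.15, edgeR adjusted p = 0.611). SMG1P3 had 58, 28 and 40 counts in OE-circSHPRH, against 66, 69 and 63 in OE-NC, with no overlap (log2 fold change -0.61, edgeR adjusted p = 0.337). SMG1P2 and SMG1P3 were the 2 of 6 copies that were lower without overlap, beside 7.57% of all genes tested. SMG1P5 was the copy with a positive value, 115, 82 and 149 counts in OE-circSHPRH against 127, 91 and 81 in OE-NC (log2 fold change 0.25, edgeR adjusted p = 0.738). Since the copies share sequence with SMG1, reads of SMG1P2, of its relatives and of SMG1 itself may be exchanged between them.

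SMG8 and SMG9, the subunits that hold the SMG1 kinase in check, had log2 fold changes of opposite sign. SMG8 (ENSG00000167447, chr17:59209400-59215247, plus strand) had 45.0, 39.9 and 46.0 CPM in OE-circSHPRH, against 43.4, 46.1 and 36.5 CPM in OE-NC. The groups overlapped, and the lowest library of each was a high-share one (log2 fold change 0.055, SE 0.080, edgeR adjusted p = 0.870). SMG9 (ENSG00000105771, chr19:43727992-43754990, minus strand) had 41.3, 43.4 and 44.6 CPM in OE-circSHPRH, against 49.3, 48.5 and 46.7 CPM in OE-NC. Every OE-circSHPRH library was below every OE-NC library, with means of 43.1 ± 1.64 CPM in OE-circSHPRH and 48.2 ± 1.33 CPM in OE-NC (SD, n = 3 each). SMG9 had the smallest p of the 9, at -0.16 on the log2 fold change scale (SE 0.061, unadjusted p = 0.0171, adjusted p = 0.347 by edgeR) and a fold of 0.895 (95% interval 0.819 to 0.978). It ranked 810th by p among the genes tested. The difference was -0.13 among low-share and -0.14 among high-share libraries, each with a single library on one side. In the authors' deposited table SMG9 had an unadjusted p of 0.0458 and an adjusted p of 0.481. The FPKM ratio of SMG8 to SMG9 was 2.30, 1.94 and 2.18 in OE-circSHPRH, against 1.86, 2.01 and 1.65 in OE-NC, with OE-circSHPRH replicate 2 inside the range of OE-NC.

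SMG5 and SMG6 act after UPF1 is phosphorylated. SMG5 (ENSG00000198952, chr1:156249224-156282825, minus strand), an adaptor for deadenylation and decapping, had 284, 273 and 285 CPM in OE-circSHPRH, against 293, 294 and 301 CPM in OE-NC. It was the most counted of the 9 (4229 to 5272 counts per library). Its coefficient of variation over the 6 libraries was the lowest, 3.41%, but close to the 3.44% of SMG1. Counting alone would give 1.44% for SMG5 and 1.99% for SMG1. The groups did not overlap, and the means were 281 ± 6.75 CPM in OE-circSHPRH and 296 ± 4.29 CPM in OE-NC (SD, n = 3 each). The log2 fold change was -0.077 (SE 0.040, edgeR adjusted p = 0.535), a fold of 0.948 with a 95% interval of 0.894 to 1.005. SMG6 (ENSG00000070366, chr17:2059839-2303771, minus strand), the endonuclease, had 43.7, 48.7 and 48.9 CPM in OE-circSHPRH, against 49.2, 47.3 and 49.5 CPM in OE-NC. Only OE-circSHPRH replicate 1 lay below the range of OE-NC (log2 fold change -0.048, SE 0.063, edgeR adjusted p = 0.854). Of the opposite-strand genes that overlap SMG6, the coding genes HIC1 and SRR held 31 to 51 and 201 to 233 counts per library, fewer than the 743 to 867 of SMG6 itself.

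**Figure D3:**
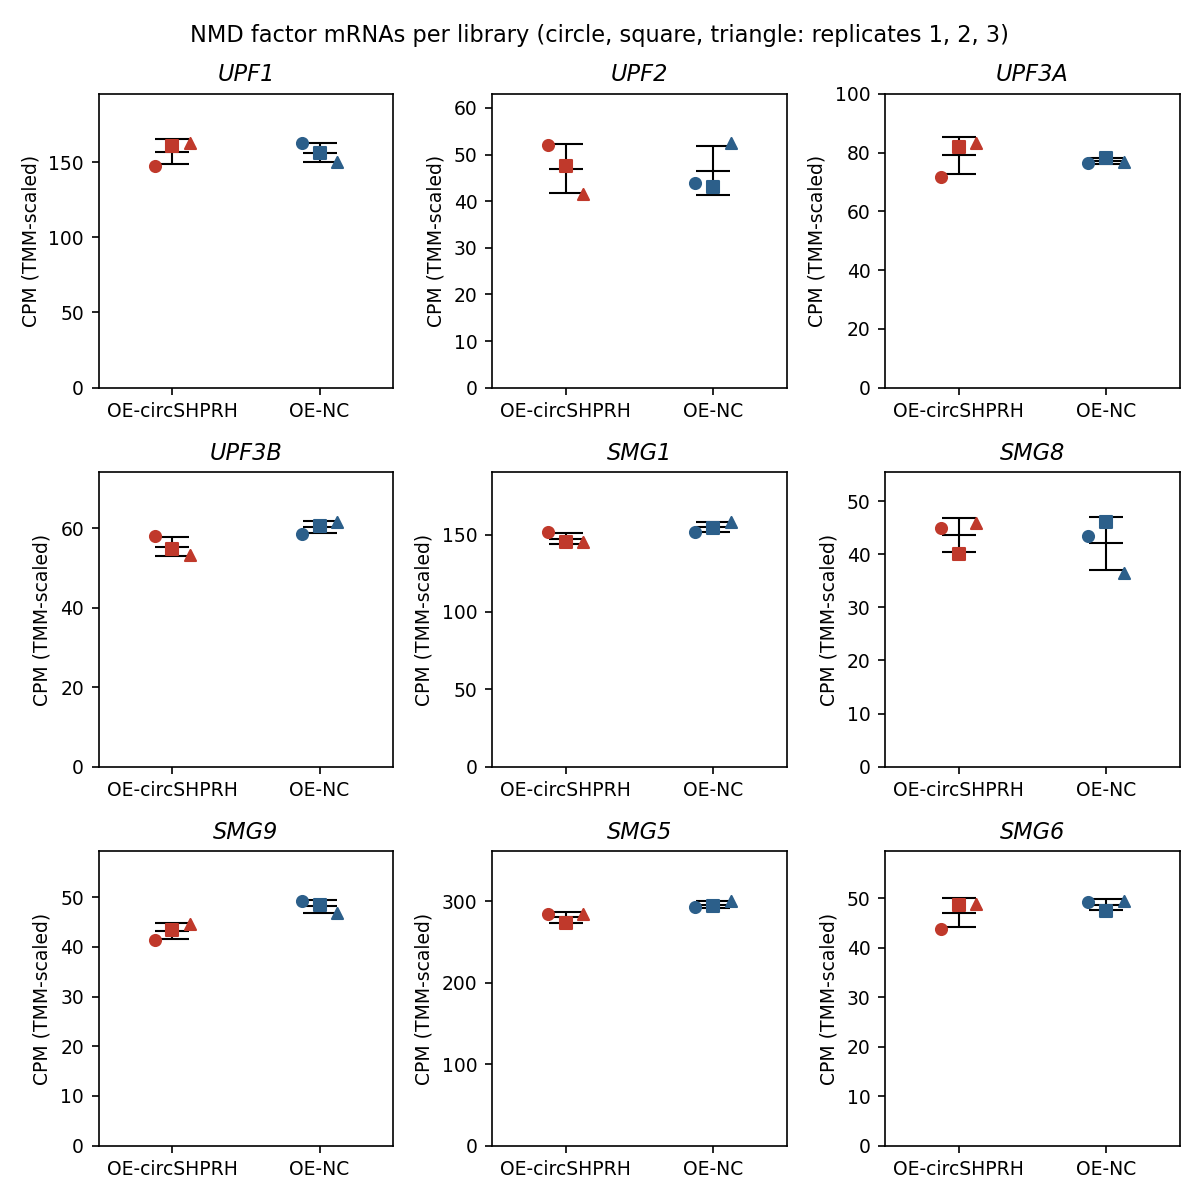
Each panel gives the TMM-scaled CPM of 1 member, with OE-circSHPRH left and OE-NC right; points are libraries and the bars are mean and SD (n = 3). UPF3B, SMG1, SMG9 and SMG5 are lower in every OE-circSHPRH library than in any OE-NC library, and the groups overlap in the other 5 panels.

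Summed over the 9 members, CPM was 895, 895 and 910.0 in OE-circSHPRH, against 929, 929 and 933 in OE-NC. SMG5, SMG1 and UPF1 make up most of that sum, and SMG5 and SMG1 are among the members that did not overlap. The same 4 members did not overlap with TMM factors, with DESeq2's size factors, and with TMM factors computed without mitochondrially encoded genes. In none of the 14 or 15 other fits per member was a member called, and the smallest adjusted p in any of them was 0.175, for SMG9 by edgeR.

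Levels per length differed widely between the members. In deposited FPKM over the 6 libraries (mean ± SD), SMG5 stood highest at 53.8 ± 1.85. UPF3B at 18.6 ± 1.05 and UPF1 at 18.0 ± 0.763 overlapped with each other, and UPF3A followed at 13.4 ± 0.711. SMG8 was at 11.3 ± 1.01 and UPF2 at 7.84 ± 0.796. SMG1 at 5.75 ± 0.201 and SMG9 at 5.70 ± 0.383 overlapped, and SMG6 was lowest at 4.49 ± 0.203. Apart from these 2 overlaps, neighbours in the order were apart in all 6 libraries. SMG5 and SMG6, which both bind phosphorylated UPF1, thus stood at opposite ends: their FPKM ratio was 13.0, 11.2 and 11.6 in OE-circSHPRH, against 11.9, 12.4 and 12.1 in OE-NC. The ratio of UPF1 to UPF2 was 1.95, 2.32 and 2.69 in OE-circSHPRH, against 2.54, 2.49 and 1.96 in OE-NC, lowest in OE-circSHPRH replicate 1 and OE-NC replicate 3. The deposited gene length counts all annotated exons. With the length of the principal transcript instead, a choice made after seeing the data, UPF3A came 2nd, UPF1 3rd and UPF3B 4th by mean. SMG1 and UPF2 exchanged places, and SMG5 and SMG6 remained at the ends. SMG6 was then lowest by little, at a mean of 7.95 beside 8.20 for SMG9 and 8.31 for UPF2, and SMG5 was at 62.6. The ratios of SMG5 to SMG6 above thus hold for the deposited length only.

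**Figure D4:**
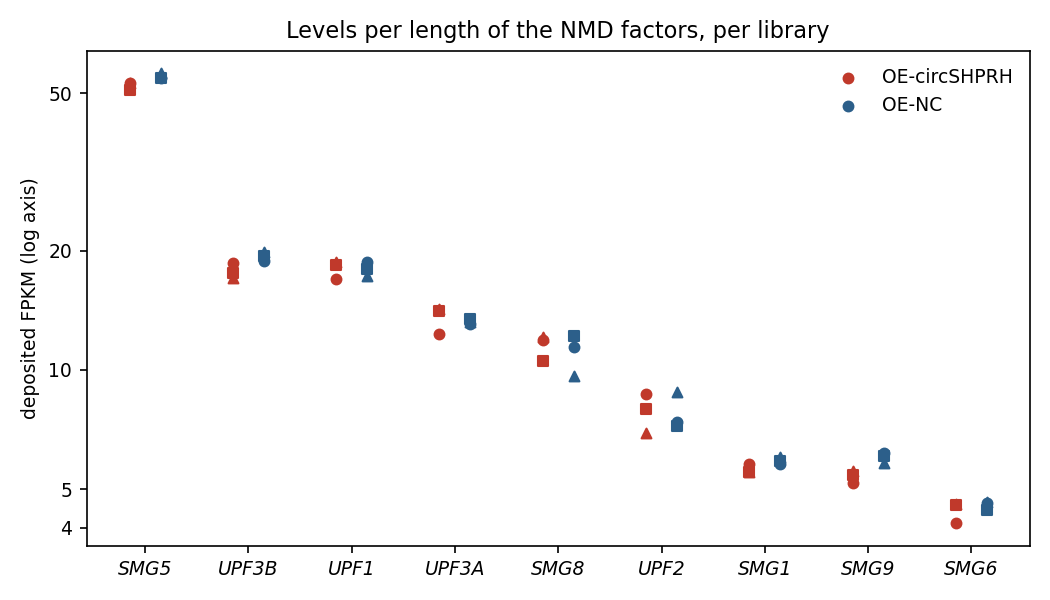
The y axis gives deposited FPKM on a log scale and the x axis the 9 members from the highest to the lowest mean; each point is a library (circle, square and triangle for replicates 1, 2 and 3), OE-circSHPRH left of OE-NC. SMG5 is above 50 FPKM in every library, and no other member reaches 20.

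Long 3′ untranslated regions (3′ UTRs) and exon junctions well past the stop codon are known features of NMD targets, and the members' annotated transcripts were read for both. The principal transcript of SMG1 has a 3′ UTR of 4716 bases in GENCODE 29, and 7.09% of 13027 tested coding genes have one as long or longer. That of SMG9 is 3604 bases (12.4% as long or longer), of UPF1 1719, of SMG6 1649, of SMG5 1363, of UPF2 1276, of UPF3A 900 and of UPF3B 856 bases. SMG8 has the shortest, 245 bases (83.7% as long or longer), and the median of the coding genes is 992 bases. None of the 9 has an exon junction more than 50 bases past the stop codon in that transcript, and 0.338% of the coding genes do. SMG1, SMG8 and SMG9 have 1 transcript each annotated as an NMD target and the other 6 have none, while 42.6% of the coding genes have at least 1. The counts are summed over each gene, so they do not separate these transcripts.

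The genes whose CPM followed UPF1 most closely over the 6 libraries were NR2F6, DLAT and NDUFS3. Their Pearson correlations of log2 CPM with UPF1 were 0.995, 0.994 and 0.989, and 94 of the 6776 genes with a mean log2 CPM of 5 or more (1.39%) had one of 0.9 or more. All points come from the same 6 libraries and share their depth and scaling. The 3 are the highest of 6776 genes over only 6 libraries, so such high correlations come in part from the choice. UPF1 had a log2 fold change of 0.0047, so small group differences in genes picked for following it were set by that choice. Theirs were 0.0012, 0.0011 and 0.018, and none passed by edgeR.

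The proteins that work with these factors gave no call either. Of 10 other NMD and termination factors, 0 passed, 0 had an unadjusted p under 0.05 by edgeR, and DESeq2 called 0. Their median log2 fold change was -0.0043 with 5 of 10 negative. Over all genes tested 0.188% passed, 10.3% had an unadjusted p under 0.05 by edgeR, and 49.2% were negative. RUVBL2, an ATPase that helps assemble the SMG1 complex, was at -0.10 (SE 0.053, edgeR adjusted p = 0.528) on the log2 fold change scale, PNRC2, which links UPF1 to decapping, at 0.094 (SE 0.061), and the helicase DHX34 at -0.078 (SE 0.057). PABPC1, the poly(A)-binding protein that opposes NMD, stood highest at 310 FPKM with a log2 fold change of 0.055 (SE 0.045). ETF1, the release factor that reads stop codons, had 55.9 FPKM and a log2 fold change of 0.019 (SE 0.040).

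Of 7 genes of the exon junction complex, 0 passed and 0 had an unadjusted p under 0.05 by edgeR, beside 0.188% and 10.3% of all genes tested. Their median log2 fold change was -0.015. The core gene MAGOH was at -0.10 (SE 0.069, edgeR adjusted p = 0.643) on that scale, its partner RBM8A at -0.077, CASC3 at -0.074 and the associated RNPS1 at 0.039. Of 18 genes of mRNA decay, 0 passed and 0 had an unadjusted p under 0.05 by edgeR, beside the same shares. Their median was 0.029 and 4 of 18 were negative, beside 49.2% of all genes tested. That count rested on the libraries used: 11 of 18 were negative without OE-circSHPRH replicate 1, with a median of -0.0093, and 9 of 18 with the mitochondrial share as a term, with a median of 0.0032. EDC4, a scaffold of decapping, was at 0.100 (SE 0.054, edgeR adjusted p = 0.555), the exosome helicase SKIV2L at 0.072, and the deadenylases CNOT7 and CNOT8 at 0.069 and 0.046. The nuclear exonuclease XRN2 had the highest level of this list, 54.8 FPKM, and a log2 fold change of -0.024. DESeq2 and limma-voom also called 0 genes of either list. In 1 gene of each list, RNPS1 and SKIV2L, every OE-circSHPRH library lay above every OE-NC library, beside 7.99% of all genes tested.

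Transcripts known as NMD targets gave the 1 call of the pathway. This list was chosen with earlier results of these data known, so its counts describe chosen genes and are no test. Of 15 listed, 14 were tested; GADD45B, with 0 to 7 counts per library, was not. ZFAS1 fell and 0 rose at the adjusted threshold, against 0.0608% and 0.128% of all genes tested. At an unadjusted p under 0.05 by edgeR 6 of 14 were lower and 1 was higher, beside 5.02% and 5.33% of all genes tested. In 6 of 14 all OE-circSHPRH libraries lay below all OE-NC libraries, beside 7.57% of all genes tested. The median log2 fold change was -0.11, with 11 of 14 negative, beside a median of 0.0018 over all genes tested.

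ZFAS1 (chr20:49278178-49295738), a noncoding host gene of snoRNAs, had 67.6, 67.9 and 69.8 CPM in OE-circSHPRH, against 91.4, 89.7 and 87.5 CPM in OE-NC. The groups were far apart compared with the spread within each, at 68.4 ± 1.18 CPM in OE-circSHPRH and 89.5 ± 1.96 CPM in OE-NC (SD, n = 3 each). ZFAS1 fell by 0.39 on the log2 scale (SE 0.051, edgeR adjusted p = 0.00118). It passed in 14 of 14 other fits, with adjusted p up to 0.0412. The difference was -0.37 among low-share and -0.37 among high-share libraries, each with a single library on one side. It overlaps the coding gene ZNFX1 on the opposite strand, which had 488 to 634 counts per library and a log2 fold change of 0.075 (edgeR adjusted p = 0.797), and reads from the 2 genes cannot be told apart without strand.

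The other targets named here were chosen after their values were seen. The snoRNA host genes are a part of the same chosen list, so their counts are likewise a description only. Of the 6 snoRNA host genes in the list, 6 had negative log2 fold changes, between -0.39 for ZFAS1 and -0.100 for GAS5, with a median of -0.17, and 49.2% of all genes tested were negative. In 5 of the 6 every OE-circSHPRH library was below every OE-NC library, beside 7.57% of all genes tested. SNHG15 was at -0.19 (SE 0.053, edgeR adjusted p = 0.174), SNHG1 at -0.15 (SE 0.046, edgeR adjusted p = 0.210) and SNHG12 at -0.33 (SE 0.13, edgeR adjusted p = 0.360). GAS5, the most abundant of them, had 628, 639 and 656 CPM in OE-circSHPRH, against 700.2, 696 and 665 CPM in OE-NC (edgeR adjusted p = 0.364). Among the other 8 targets tested, 5 were negative, the median was -0.087, and in 1, the stress transcription factor gene ATF3, the libraries did not overlap (log2 fold change -0.14, edgeR adjusted p = 0.307). GADD45A, a growth arrest gene whose mRNA is a known NMD target and also a target of p53, had the highest value of the list, 0.17 (SE 0.063, edgeR adjusted p = 0.328). Counts of these genes do not separate transcription from decay.

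**Figure D5:**
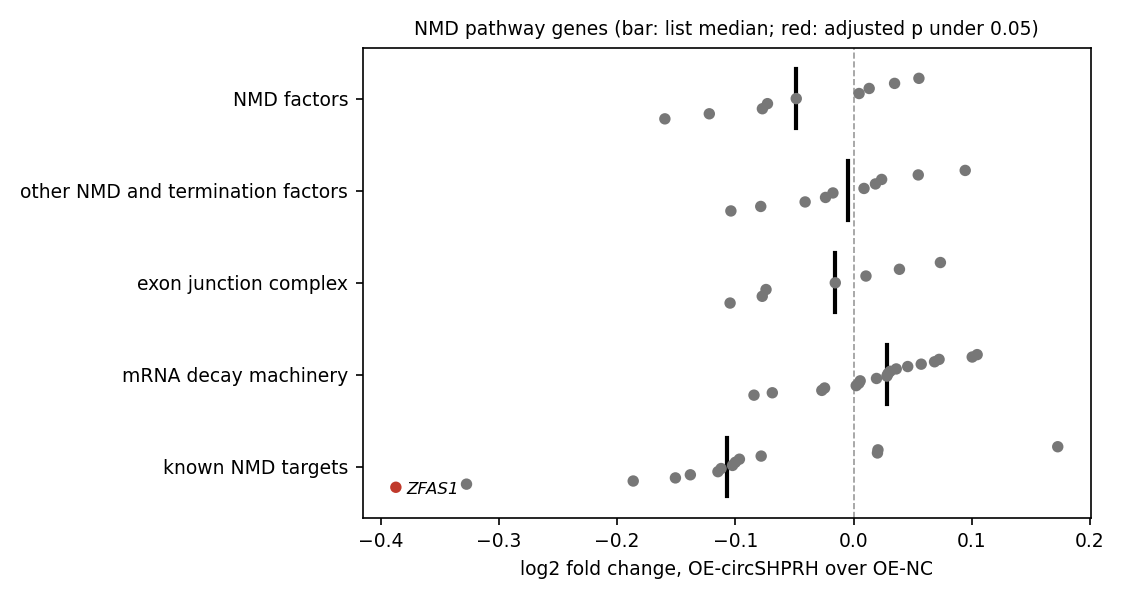
Each point is a gene placed by its log2 fold change, OE-circSHPRH over OE-NC, within its list; bars are list medians and red marks an adjusted p under 0.05 by edgeR. ZFAS1, at -0.39, is the only red point, and the medians of the other 4 lists lie between -0.048 and 0.029.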

How the data were processed

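Per the labels, TRIzol RNA of the transfected cells (72 h) went into SMARTER mRNA-Seq libraries. The deposited table holds raw counts per gene, a normalized count signal that equals the counts divided by a factor per library, FPKM, and the authors' log2 fold change with its p-values. Aligner, counter and strand use were not given in the sources used here. GRCh37 is the build in the submitters' processing notes, but gene coordinates equal those of GENCODE 29 on GRCh38 for 28752 of 28752 genes, and that build is used. Counts were filtered with filterByExpr (minimum count 10, total 15), scaled by TMM and tested two-sided with edgeR 4.0.16 (glmQLFit, glmQLFTest) in R 4.3.3, adjusted over 16458 genes (99.8% of counts). SEs are the absolute log2 fold change over the square root of F. Code was tested on simulated data. Members and lists were chosen with earlier results of these data known. Named were all members, called list genes, or else the 3 with the smallest p and the 2 with the highest level. DESeq2 1.42.0, limma 3.58.1, other filters, a replicate block, a mitochondrial share term and leaving out libraries were tried. Replicates differed by more than sampling noise.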

Additional observations from a re-analysis of the deposited data

How the results depend on the processing

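The NMD factors gave 0 calls in the main edgeR fit and under every alternative run. UPF3B, SMG1, SMG5 and SMG9 kept a negative log2 fold change in every alternative fit, with ranges of -0.16 to -0.095, -0.094 to -0.057, -0.088 to -0.057 and -0.18 to -0.13 when each library was left out. The other members changed sign: without 1 library UPF1 ran from -0.027 to 0.047, UPF2 from -0.068 to 0.11, UPF3A from -0.0062 to 0.100, SMG6 from -0.077 to 0.0025 and SMG8 from -0.039 to 0.13, and XRN2 of the decay list from -0.054 to 0.0028. UPF2 was -0.074 with the mitochondrial share as a term (edgeR adjusted p = 0.709). Within low-share and high-share libraries, each with a single library on one side, SMG5 was -0.045 and -0.11, and SMG8 was 0.21 within high-share ones. Over all genes, 21 rose and 10 fell by edgeR, against 49 and 28 by DESeq2, 116 and 78 with no filter, 104 and 67 with the share term, and 4 and 2 with a replicate block. Same-numbered libraries did not deviate together over the genes tested (correlations -0.0445, -0.0266 and -0.106). That check cannot exclude a shared culture or batch, and the labels give none. The replicate block thus pairs libraries by number only. Leaving out a library gave 4 to 142 genes that rose and 1 to 169 that fell, the most without OE-circSHPRH replicate 3, which left 2 high-share libraries in OE-circSHPRH. Known NMD targets had 1 call, 2 with the share term (ZFAS1 and GADD45A) and 1 to 2 with a library left out (ZFAS1 and, without OE-circSHPRH replicate 3, SNHG5). List medians near 0 changed sign: mRNA decay was -0.0093 without OE-circSHPRH replicate 1, the exon junction complex 0.016 without OE-circSHPRH replicate 2, and other NMD factors 0.019 without OE-circSHPRH replicate 3. Causes were not tested. Members had 619 to 5272 counts per library. At each member's mean count over the 6 libraries, counting error was 1.44% to 3.74%, below that member's spread between libraries.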
